A study of Homo sapiens with 6 samples.

Results

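The small RNA silencing machinery was examined in HCT116, an established human colorectal carcinoma cell line, through 10 genes: DROSHA, DGCR8, XPO5, DICER1, TARBP2, AGO1, AGO2, AGO3, AGO4 and TNRC6A. They were taken by gene symbol from GENCODE v29 out of 18750 genes in the count table. All 10 were found, and all 10 were among the 13750 genes that passed the filter on low counts. RNA sequencing had been done on 3 libraries of cells given an siRNA against the long non-coding RNA AC010789.1 (si-AC010789.1) and on 3 libraries of cells given a non-targeting siRNA as the control (siRNA-NC). In both groups the siRNA had been transfected into HCT116 cells, with a lipid reagent by the study's methods, so no library shows the machinery without a small RNA load, and a difference between the groups is one between 2 siRNAs. The level of AC010789.1 was not analysed here, which leaves the labels of the groups unchecked against the siRNA's target in these counts. The study reports its own check of the knockdown in the samples used for RNA sequencing. The study asked how the knockdown acts through microRNA-432-3p, and the comparison below asks whether the genes that make and use such small RNAs differed between the groups.

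MicroRNAs are cut out of longer primary transcripts in the nucleus by the Microprocessor, which consists of the RNase III enzyme DROSHA and its RNA-binding partner DGCR8. The hairpin that results leaves the nucleus with exportin 5 (XPO5) and is cut to a short duplex by DICER1 together with TARBP2. One strand is kept by an Argonaute protein (AGO1 to AGO4), of which AGO2 is the one with well-known target cleavage activity, and TNRC6 proteins such as TNRC6A link the loaded Argonaute to deadenylation and decapping of the target. Short transfected siRNAs act through the Argonautes and do not need the cut by DROSHA and DGCR8.

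The microRNAs that bear on these genes are given first, from RefSeq (GRCh38.p14), 5′ to 3′, with the seed (bases 2 to 8, the part that pairs with targets) in capitals. miR-432-3p is shown because the study names it as the partner of AC010789.1. It lies at chr14:100884544-100884564 on the plus strand. The other microRNAs are shown because their hairpins lie within exons of DGCR8 itself, miR-3618 at chr22:20085797-20085818 and the 2 arms of miR-1306 at chr22:20086072-20086093 and chr22:20086112-20086129, all on the plus strand.
miR-432-3p: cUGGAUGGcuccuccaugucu
miR-3618: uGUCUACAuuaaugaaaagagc
miR-1306-5p: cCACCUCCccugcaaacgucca
miR-1306-3p: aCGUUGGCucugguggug
The 4 seeds all differed.

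The letters that pair with the miR-432-3p seed, CCATCCA, were searched on the transcript strand in 1 3′ UTR per gene, that of the protein-coding transcript with the most counts. They were present in 2 of the 10 genes, DGCR8 and XPO5, once in each, and in 10.9% of the 12052 3′ UTRs searched. Per kilobase the match occurred 0.0372 times in the 10 genes and 0.0722 times over all 3′ UTRs. The sites are printed with 10 bases on each side and the match in capitals, for DGCR8 at chr22:20111800-20111806 (plus strand) and for XPO5 at chr6:43522727-43522733 (minus strand).
DGCR8: tgtgctgatgCCATCCAgggcactggg
XPO5: gacctgttgtCCATCCAgtccactgac
A match is a description of these letters only. Neither gene passed the test in its sum (values below).

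The libraries held 11277222 to 13443866 counts, of which 99.9% fell in transcripts matched to GENCODE v29. Among the colorectal epithelial markers looked up, KRT8 held 5558 to 11278 counts per library and KRT18 4395 to 6129, whereas EPCAM held 35 to 68; the other 3 markers were not analysed here. Summed epithelial markers came to 985 to 1229 CPM, that is counts scaled to the library's size, in siRNA-NC, against 801 to 1041 in si-AC010789.1. The endothelial marker CDH5 held 10 to 29 counts per library. The fibroblast markers COL1A1 and DCN summed to 39.3 to 48.4 CPM in siRNA-NC, against 42.3 to 50.3 in si-AC010789.1. The part of these markers in the results below was not tested. Since the values are relative to all RNA counted, fewer cells that express a gene and less RNA per cell cannot be told apart.

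None of the 10 genes passed the test by edgeR's quasi-likelihood fit at a Benjamini-Hochberg adjusted p under 0.05, whereas 135 of 13750 genes did (0.982%; 39 higher and 96 lower in si-AC010789.1). The clearest separation was that of AGO2, whose summed level in CPM was 21.6% higher in si-AC010789.1 and which DESeq2 called and edgeR did not. Of the 10, 3 had groups that did not overlap in CPM (AGO2, AGO4 and TNRC6A), which is 30% against 25.1% of all genes tested. Per length (TPM, each transcript's counts divided by its own length and scaled to the library) the groups of these 3 genes overlapped. That scale depends on how a gene's counts were split among its transcripts, and short transcripts weigh more. Of the 10, 2 had an unadjusted edgeR p under 0.05 (AGO2 and AGO4). The share of all genes tested with such a p was not analysed here, so this count has no background beside it. The log2 fold change was positive for 6 and negative for 4, with a median of 0.034 against -0.00066 over all genes tested, 49.9% of which were positive. DESeq2 called 1 of the 10, AGO2, and 554 of the 10743 genes to which it gave an adjusted p (5.16%). The sums were steady: none of the 10 differed by over 2-fold between libraries of 1 group, as 13.8% of all genes did, and the widest ratio of highest to lowest was 1.48, for DICER1 in siRNA-NC. With 3 libraries against 3, the smallest p an exact two-sided permutation test can give is 0.1.

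**Figure D1:**
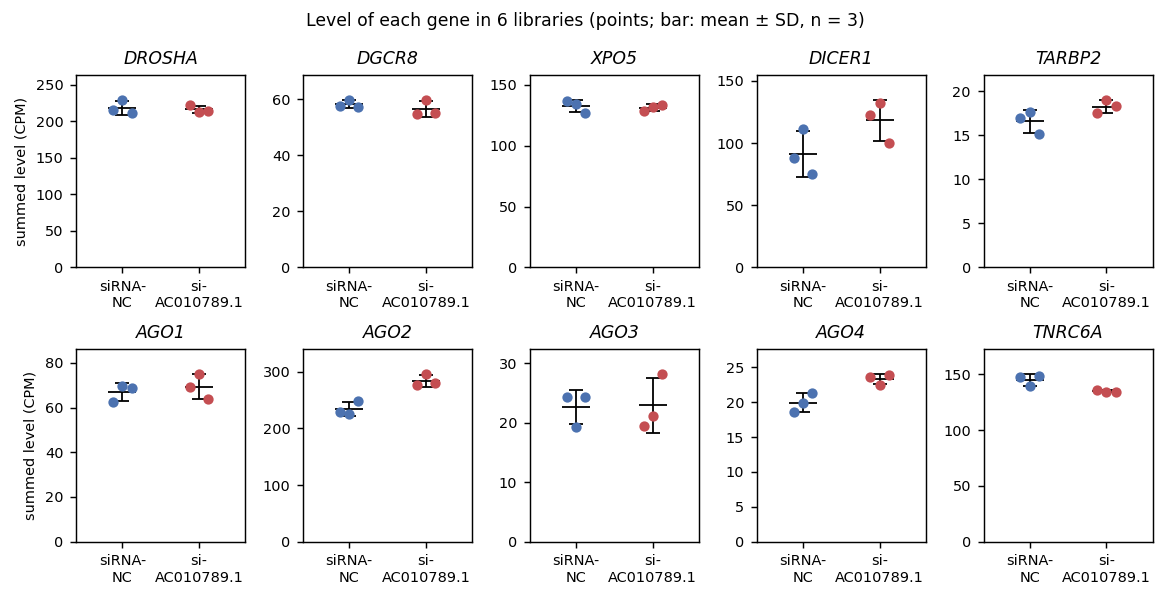
Summed level in CPM (y axis, from 0) of each of the 10 genes in the 3 siRNA-NC and 3 si-AC010789.1 libraries (points), with the mean and SD (bars, n = 3). In CPM the points of AGO2 and AGO4 lie higher in every si-AC010789.1 library than in any siRNA-NC library and those of TNRC6A lower; the other 7 genes overlap.

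**Figure D2:**
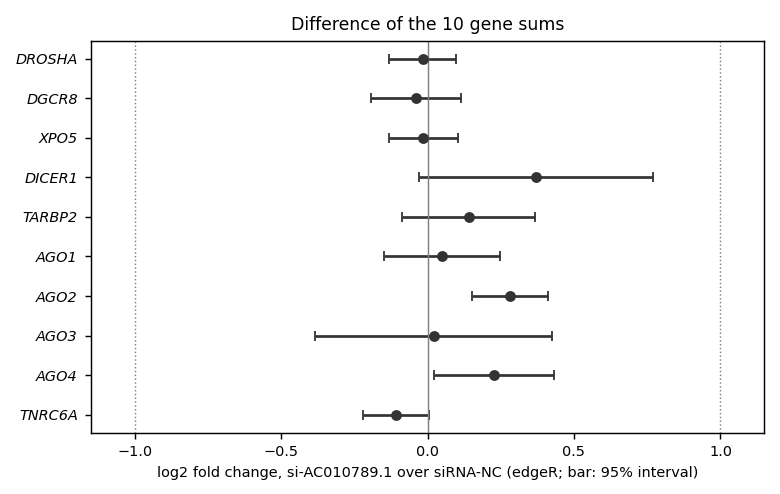
Log2 fold change of si-AC010789.1 over siRNA-NC from edgeR (x axis) with its 95% interval for each gene (y axis); dotted lines mark a 2-fold change. All 10 intervals lie within a 2-fold change, and those of AGO2 (0.15 to 0.41) and AGO4 (0.02 to 0.43) leave out 0.

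DROSHA (chr5:31400497-31532196, minus strand) makes the nuclear cut. Its level was 215, 229.8 and 212 CPM in siRNA-NC, against 222, 213 and 214 CPM in si-AC010789.1. The 2 groups overlapped, and the means of 219 ± 9.57 and 217 ± 4.81 CPM (SD, n = 3 each) differed by a log2 fold change of -0.02 (SE 0.05, edgeR adjusted p = 0.902). The 95% interval ran from -0.13 to 0.10, at 2429 to 3048 counts per library.

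DGCR8 (chr22:20080232-20111877, plus strand), the hairpin-binding partner, was at 57.5, 59.9 and 57.2 CPM in siRNA-NC and at 54.9, 59.8 and 55.2 CPM in si-AC010789.1. These values also overlapped, with a log2 fold change of -0.04 (SE 0.06, edgeR adjusted p = 0.804, 95% interval -0.19 to 0.11). In TPM the ratio of DROSHA to DGCR8 was 4.16 ± 0.361 in siRNA-NC, against 4.22 ± 0.624 in si-AC010789.1 (n = 3 each, exact two-sided permutation p = 0.8, 0.8 after adjustment over 4 such ratios).

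XPO5 (chr6:43522330-43576075, minus strand) carries the hairpin out of the nucleus. It was at 137, 134 and 127 CPM in siRNA-NC and at 129, 132 and 134 CPM in si-AC010789.1. The groups overlapped and the log2 fold change was -0.01 (SE 0.05, edgeR adjusted p = 0.915, 95% interval -0.13 to 0.10). XPO5 shares 348 exon bases with POLR1C on the other strand, which held 204 to 267 counts per library; whether the counting used strand is not given in the sources used here.

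DICER1 (chr14:95086228-95158010, minus strand), the cytoplasmic RNase III enzyme, had the widest spread of the 10 between siRNA-NC libraries. Its level was 87.9, 111 and 75.1 CPM in siRNA-NC, against 122, 132 and 99.8 CPM in si-AC010789.1. The lowest si-AC010789.1 library lay under the highest siRNA-NC library, so the groups overlapped. The log2 fold change of 0.37 (SE 0.17, 95% interval -0.03 to 0.77) was the largest of the 10 and did not pass the test (edgeR adjusted p = 0.326; DESeq2 adjusted p = 0.269). An increase of up to 1.70-fold and no increase were both within the interval.

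TARBP2 (chr12:53500921-53506431, plus strand), the double-stranded RNA-binding partner of DICER1, held 191 to 238 counts per library. Its level was 16.9, 17.6 and 15.2 CPM in siRNA-NC, against 17.5, 19.0 and 18.3 CPM in si-AC010789.1, which overlap at a single library of each group. Its log2 fold change was 0.14 (SE 0.09, edgeR adjusted p = 0.502, 95% interval -0.09 to 0.37). The TPM ratio of DICER1 to TARBP2 was 0.964 ± 0.200 in siRNA-NC, against 1.30 ± 0.355 in si-AC010789.1 (n = 3 each, exact two-sided permutation p = 0.3, adjusted 0.6). The highest ratio, 1.71, was in the second si-AC010789.1 library, where the short retained-intron transcript DICER1-213 (897 bases) held 148 counts.

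AGO2 (chr8:140520156-140635619, minus strand), the Argonaute that can cut its target, showed the clearest separation. Its level was 228, 225 and 248 CPM in siRNA-NC, against 276, 296 and 280.5 CPM in si-AC010789.1. On this scale every si-AC010789.1 library was higher than every siRNA-NC library. This was a log2 fold change of 0.28 (SE 0.05, 95% interval 0.15 to 0.41), that is 1.22-fold, with an edgeR p of 0.0016 and an adjusted p of 0.078, whereas the DESeq2 adjusted p was 0.0066. The size was nearly the same by both tools and with any 1 library left out (log2 fold change 0.25 to 0.32), so whether AGO2 passed the test rests on the tool. By each transcript's own length, AGO2 was at 45.5, 50.6 and 59.8 TPM in siRNA-NC, against 53.9, 47.3 and 66.3 TPM in si-AC010789.1. There the groups overlapped (means 52.0 and 55.8 TPM). With the longest transcript as gene length, the means were 40.2 TPM in siRNA-NC and 49.0 TPM in si-AC010789.1. These scales differ in the weight of short transcripts such as AGO2-205, at 3141 bases against 14581 for AGO2-201. AGO2-205 held 0, 405 and 482 counts in siRNA-NC, against 0, 0 and 396 in si-AC010789.1.

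AGO4 (chr1:35808172-35857890, plus strand), an Argonaute without target cleavage in the usual description, was at 18.6, 19.8 and 21.4 CPM in siRNA-NC and at 23.6, 22.5 and 23.9 CPM in si-AC010789.1. Its groups did not overlap in CPM either. They did by each transcript's own length, at 7.55 to 7.83 TPM in siRNA-NC and 7.42 to 11.2 TPM in si-AC010789.1. The 11.2 TPM was in the third si-AC010789.1 library, where the short AGO4-202 (522 bases) and AGO4-203 (297 bases) held 8 and 5 counts. AGO4-201 (7116 bases) held 282 there. With the longest transcript as gene length, the means were 7.03 TPM in siRNA-NC and 8.25 TPM in si-AC010789.1. For AGO4 the difference was 0.23 on the log2 scale (SE 0.09), with an edgeR adjusted p of 0.252 and a DESeq2 adjusted p of 0.422.

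AGO1 (chr1:35869808-35930528, plus strand) was at 62.5, 69.7 and 68.9 CPM in siRNA-NC and at 69.0, 75.0 and 63.9 CPM in si-AC010789.1. AGO3 (chr1:35930718-36072500, plus strand) was at 24.3, 19.3 and 24.2 CPM in siRNA-NC and at 19.4, 21.2 and 28.2 CPM in si-AC010789.1. The groups overlapped for both genes. On chromosome 1 the order of the 3 genes is AGO4, AGO1 and AGO3. Their log2 fold changes were 0.05 for AGO1 (95% interval -0.15 to 0.25, edgeR adjusted p = 0.814) and 0.02 for AGO3 (95% interval -0.38 to 0.43, edgeR adjusted p = 0.965), so that a change of AGO3 by 1.3-fold in either direction is within its interval.

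The 4 Argonaute genes are paralogs, and their main coding sequences (2571 to 2583 bases) were 69.8% to 74.9% identical in pairs. No stretch of 50 bases was shared between the listed transcripts of any pair, so among these 4 genes an exact read of that length points to only 1. Other genes were not searched. AGO2 made up most of the Argonaute TPM, 67.9% ± 3.76 in siRNA-NC, against 67.1% ± 4.11 in si-AC010789.1. AGO1 followed with 13.5% ± 1.03 and 13.2% ± 2.35, AGO4 with 10.1% ± 0.728 and 10.5% ± 1.30, and AGO3 with 8.49% ± 3.33 and 9.20% ± 2.95. None of these shares differed beyond the spread of the libraries (n = 3 each, exact two-sided permutation p = 0.7 to 0.9, all 0.9 after adjustment over the 4). The 4 together came to 76.3 ± 7.18 TPM in siRNA-NC, against 82.9 ± 9.38 TPM in si-AC010789.1 (n = 3 each, exact permutation p = 0.5).

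TNRC6A (chr16:24610209-24827632, plus strand), the scaffold that recruits deadenylases to Argonaute, was the one gene that was lower without overlap in CPM. It was at 147, 139 and 149 CPM in siRNA-NC and at 136, 134 and 134 CPM in si-AC010789.1. The 3 si-AC010789.1 libraries lay close together (ratio of highest to lowest 1.01) and just under the lowest siRNA-NC library. By each transcript's own length the groups overlapped, at 65.0 to 74.5 TPM in siRNA-NC and 62.0 to 66.1 TPM in si-AC010789.1. With the longest transcript as gene length, the means of TNRC6A were 43.2 TPM in siRNA-NC and 40.2 TPM in si-AC010789.1. Its difference was -0.11 on the log2 scale (SE 0.05, 95% interval -0.22 to 0.004), which did not pass the test (edgeR adjusted p = 0.306; DESeq2 adjusted p = 0.468). The TPM ratio of AGO2 to TNRC6A was 0.758 ± 0.140 in siRNA-NC, against 0.874 ± 0.121 in si-AC010789.1 (n = 3 each, exact two-sided permutation p = 0.5, adjusted 0.667).

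Compared per length, the 10 genes spanned from DROSHA to AGO3 in siRNA-NC, around a median of 22.8 TPM over all genes tested (quartiles 7.96 and 55.0). DROSHA was highest with 141 ± 1.86 TPM (SD, n = 3). TNRC6A and XPO5 followed with 69.0 ± 4.96 and 69.0 ± 5.01 TPM and could not be ranked, since their libraries overlapped. AGO2 stood below them at 52.0 ± 7.29 TPM. DGCR8 (34.1 ± 3.11), TARBP2 (29.5 ± 3.94) and DICER1 (27.9 ± 2.05 TPM) overlapped from neighbour to neighbour. AGO1 (10.3 ± 0.554 TPM) was separate from both its neighbours in the order, and AGO4 (7.66 ± 0.151) and AGO3 (6.42 ± 2.26 TPM) overlapped. In si-AC010789.1 DROSHA was again highest, and XPO5 (74.5 ± 7.04 TPM) stood above TNRC6A (63.7 ± 2.13 TPM) without overlap. DICER1, at 33.5, 57.1 and 34.7 TPM, could not be ranked against DGCR8 (29.3, 35.5 and 34.4 TPM), and its libraries lay above those of TARBP2, the highest of which was at 33.4 TPM. In the library with 57.1 TPM, the retained-intron transcript DICER1-213 (897 bases) held 148 counts, against 1 to 58 in the other libraries. A transcript so short weighs more per count in TPM, so the 57.1 TPM is not a level of coding DICER1 message alone. AGO2 overlapped both TNRC6A and DICER1, and AGO1 overlapped AGO4. The nuclear enzyme was thus listed at a higher level than any gene of the cytoplasmic steps, and AGO1, AGO3 and AGO4 were the lowest.

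**Figure D3:**
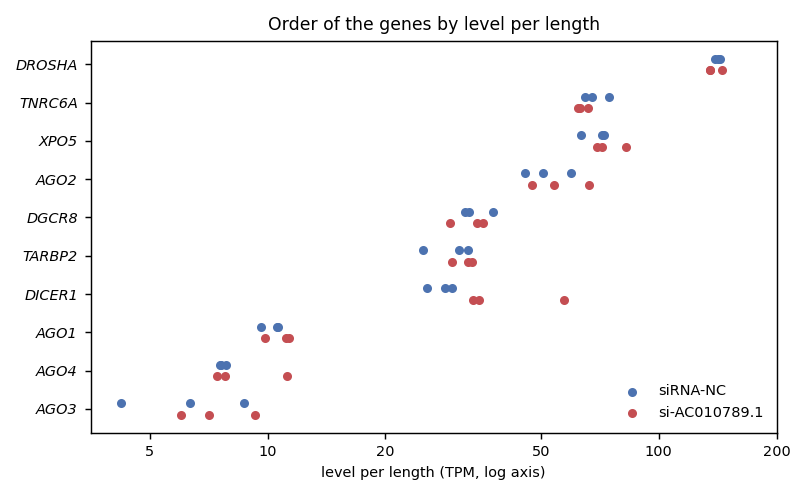
Level per length in TPM (log x axis) of the 10 genes (y axis, ordered by the siRNA-NC mean) in each of the 6 libraries (points, coloured by group). DROSHA lies apart near 140 TPM, and AGO1, AGO4 and AGO3 lie at 11.3 TPM or below.

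The table lists single transcripts, and those of the 10 genes were far less steady than their sums. In all, 111 of their transcripts were listed and 54 passed the filter on low counts. None of the 54 had an edgeR adjusted p under 0.05, whereas 6 of 44319 transcripts did (0.0135%). None had a DESeq2 adjusted p under 0.05 either, whereas 616 transcripts of the whole table did. Of the 54, 2 had an unadjusted edgeR p under 0.05, DROSHA-213 and AGO2-201. The share of all transcripts tested with such a p was not analysed here. One of the 54, DROSHA-213, had both an unadjusted p under 0.05 and a log2 fold change beyond 1 in size, 1.85% against 3.49% of all transcripts tested. Groups that did not overlap were found for 6 of the 54 (11.1%, against 14% of all). Of the 54, 35 differed by over 2-fold between libraries of 1 group (64.8%, against 65.5% of all transcripts tested), with counts under 3 raised to 3 for this ratio. The median biological coefficient of variation over all features tested was 0.479 for transcripts and 0.126 for gene sums.

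**Figure D4:**
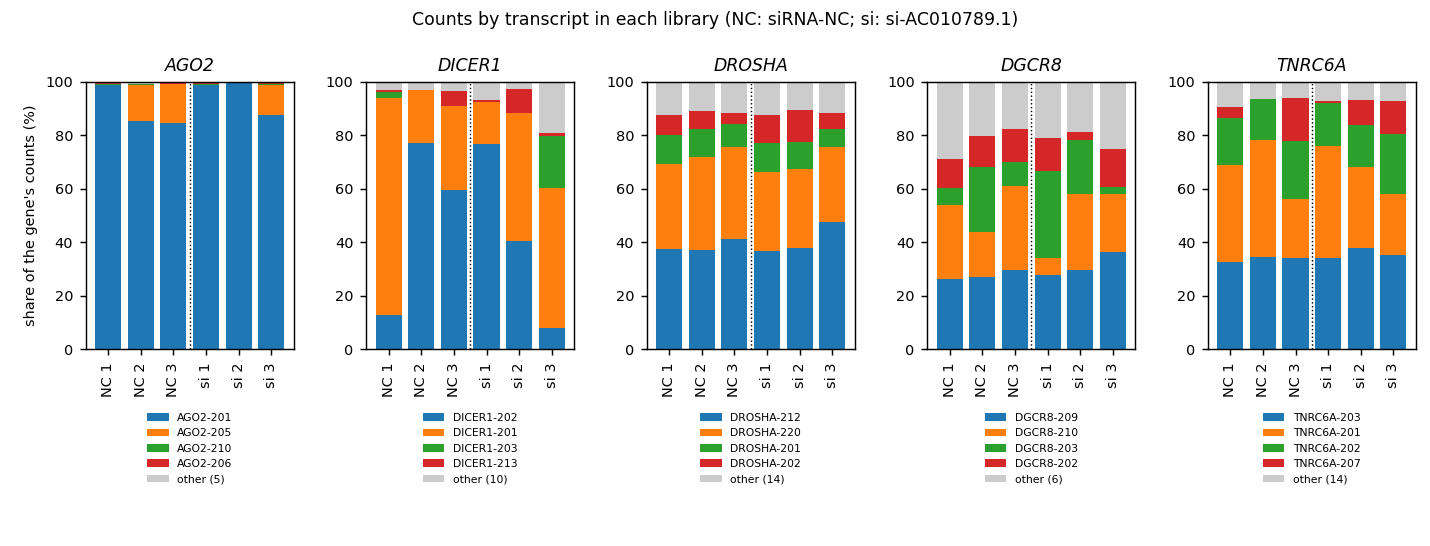
Share of a gene's counts (y axis, %) assigned to its 4 transcripts with the highest mean level (colours) and to all others (grey) in each library of siRNA-NC (NC) and si-AC010789.1 (si), for AGO2, DICER1, DROSHA, DGCR8 and TNRC6A. DROSHA keeps a similar split in all 6 libraries, while DICER1-202 ranges from 7.95% to 77.3%.

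DROSHA was mostly counted in DROSHA-212 and DROSHA-220, which held 66.3% to 75.7% of its counts. DROSHA-212 held 914, 1128 and 1161 counts in siRNA-NC, against 933, 1010 and 1264 in si-AC010789.1. DROSHA-220 held 773, 1060 and 977 counts in siRNA-NC, against 752, 795 and 736 in si-AC010789.1. Scaled to CPM, the values of DROSHA-220 did not overlap (log2 fold change -0.24, SE 0.11, edgeR adjusted p = 0.905) and those of DROSHA-212 did (0.05, SE 0.13, edgeR adjusted p = 0.994). The coding sequences of these transcripts differ by 1 block of 111 bases that DROSHA-212 has and DROSHA-220 lacks, at chr5:31515454-31515564. DROSHA-202 has 4011 coding bases, as many as DROSHA-220, and went the other way. It held 178, 209 and 116 counts in siRNA-NC, against 263, 321 and 153 in si-AC010789.1, and is named because of these values. Its groups overlapped in CPM (log2 fold change 0.59, SE 0.39, edgeR adjusted p = 0.946). The lower values of DROSHA-220 are thus those of a single transcript. The block is printed below in capitals with 30 coding bases on each side, on the minus strand, because it is what tells the coding parts of the main DROSHA messages apart.
DROSHA-212: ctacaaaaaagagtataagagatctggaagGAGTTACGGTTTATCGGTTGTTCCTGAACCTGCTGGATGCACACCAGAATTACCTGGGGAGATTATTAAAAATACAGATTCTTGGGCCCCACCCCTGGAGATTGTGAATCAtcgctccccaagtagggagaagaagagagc

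DROSHA-213 (chr5:31401412-31423321, 8 exons, 1261 bases) is annotated as a retained-intron transcript and was the transcript with the smallest p among the 54. It held 6, 9 and 6 counts in siRNA-NC, against 26, 20 and 33 in si-AC010789.1. All 3 si-AC010789.1 libraries were higher, at a level that made up 0.213% to 0.295% of DROSHA counts in siRNA-NC, against 0.749% to 1.25% in si-AC010789.1. The log2 fold change was 1.95 (SE 0.37), with an edgeR p of 0.0023 that did not survive adjustment (adjusted p = 0.364; DESeq2 adjusted p = 0.060). The transcript begins with 377 bases of intron that run into exon 28 of the 35 exons of DROSHA-212, a coding exon of 158 bases (chr5:31422787-31422944). The boundary is shown over chr5:31422845-31423044 on the minus strand, with the last 100 intron bases in small letters and the next 100 exon bases in capitals.
DROSHA-213: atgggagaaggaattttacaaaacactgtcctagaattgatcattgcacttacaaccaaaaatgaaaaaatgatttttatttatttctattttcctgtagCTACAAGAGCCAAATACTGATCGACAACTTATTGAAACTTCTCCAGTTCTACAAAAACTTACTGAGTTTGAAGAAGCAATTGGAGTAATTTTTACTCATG
The intron ends in the usual AG. Counts per transcript do not show whether the reads lay in these intron bases or in the exons that other DROSHA transcripts share.

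Retained-intron transcripts as a class held 1.89%, 2.17% and 1.77% of DROSHA counts in siRNA-NC, against 2.40%, 2.55% and 2.57% in si-AC010789.1, DROSHA-213 included. Among the other transcripts of this class, DROSHA-203 was lower in si-AC010789.1 without overlap in CPM, and the rest overlapped. DROSHA-203 held 9, 23 and 7 counts in siRNA-NC, against 6, 5 and 4 in si-AC010789.1, and is named because of these values. Only DROSHA-213 was thus higher without overlap, and the class without it was not tested. The protein-coding share of DROSHA is nearly what this class leaves over. It was 97.8% ± 0.228 in siRNA-NC, against 97.2% ± 0.275 in si-AC010789.1 (n = 3 each, exact two-sided permutation p = 0.1, and 0.5 after adjustment over the 10 genes). AGO3 was the other gene of the 10 whose protein-coding share did not overlap. How many of all genes have such a separation was not analysed here. AGO3-207, annotated for nonsense-mediated decay, held 25, 4 and 22 counts in siRNA-NC, against 34, 36 and 54 in si-AC010789.1, and the protein-coding share of AGO3 was 91.5% ± 4.92 and 81.8% ± 1.58 (n = 3 each, exact two-sided permutation p = 0.1, adjusted 0.5). By the transcript fit AGO3-207 had a log2 fold change of 1.29 (SE 0.71, edgeR adjusted p = 0.926) and AGO3-203, the main coding transcript with 167 to 287 counts, one of -0.16 (SE 0.26, edgeR adjusted p = 0.994). For the other 8 genes the protein-coding shares overlapped between the groups.

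DGCR8 had the lowest mean share of counts in coding transcripts, which held 25.1% to 46.2% of its counts in siRNA-NC, against 27.1% to 56.7% in si-AC010789.1. Its leading transcripts, DGCR8-209 (171 to 248 counts) and DGCR8-210 (39 to 238 counts), are both annotated with a retained intron. DGCR8-209 and the coding transcript DGCR8-203 (17 to 205 counts) begin at bases 20085820 and 20085822 of chromosome 22, next to the last base of mature miR-3618, the sequence printed above, at 20085818. They therefore hold 14 and 12 bases of the 88-base miR-3618 hairpin, whereas 3 transcripts hold it whole and 5 hold none of it. Transcripts that begin inside the hairpin held 32.7%, 51.1% and 38.9% of DGCR8 counts in siRNA-NC, against 60.5%, 49.9% and 38.9% in si-AC010789.1. Those with the whole hairpin held 18.8%, 22.2% and 21.9% in siRNA-NC, against 24.0%, 9.35% and 24.6% in si-AC010789.1. The groups overlapped in each class (n = 3 each, exact two-sided permutation p = 0.5 to 1, adjusted 0.9 to 1 over 3 classes). Between 51.5% and 84.6% of DGCR8 counts per library were in transcripts with the whole miR-1306 hairpin. The rows for the microRNA genes MIR3618 and MIR1306 themselves held 1 count in every library, under the 3 counts taken as the floor.

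DICER1 had the same coding sequence in its leading transcripts DICER1-202 and DICER1-201, which start at bases 95141718 and 95157422 of chromosome 14 and so differ before the coding part. DICER1-202 held 126, 1143 and 596 counts in siRNA-NC, against 1076, 670 and 98 in si-AC010789.1. DICER1-201 held 807, 288 and 313 counts in siRNA-NC, against 219, 797 and 647 in si-AC010789.1. Libraries high in one were mostly low in the other, within each group. The 4 listed transcripts with this coding sequence summed to 953, 1432 and 909 counts in siRNA-NC, against 1355, 1467 and 982 in si-AC010789.1, that is 79.7% to 96.9% of DICER1 counts. In the third si-AC010789.1 library, DICER1-203 held 237 counts and DICER1-214 held 215, against 0 to 20 and 0 to 9 in the other libraries; these transcripts are named because of these values.

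AGO2 was counted almost wholly in AGO2-201 and AGO2-205 (98.7% to 99.5% of its counts). AGO2-201 held 2541, 2553 and 2792 counts in siRNA-NC, against 3120, 3684 and 3034 in si-AC010789.1, without overlap once scaled (log2 fold change 0.36, SE 0.09, edgeR adjusted p = 0.637). AGO2-205, with a shorter coding sequence, held 0, 405 and 482 counts in siRNA-NC, against 0, 0 and 396 in si-AC010789.1. It was listed at 0 in 1 siRNA-NC library and in 2 si-AC010789.1 libraries, and its log2 fold change of -1.07 had an SE of 2.72. AGO1-201 (679 to 914 counts) and AGO4-201 (205 to 282 counts) held nearly all counts of their genes, with edgeR adjusted p-values of 0.995 and 0.968. AGO1-202 held 26, 30 and 39 counts in siRNA-NC, against 5, 25 and 26 in si-AC010789.1 (log2 fold change -0.73, SE 0.61, edgeR adjusted p = 0.976), and AGO4-203 held 2 to 5 counts and was not tested.

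XPO5-201 held 1121, 1329 and 1244 counts in siRNA-NC, against 1004, 1171 and 1306 in si-AC010789.1, and the retained-intron transcript XPO5-207 held 253 to 384 counts, 15.3% to 23.3% of the gene. TNRC6A-203 held 540, 636 and 677 counts in siRNA-NC, against 530, 637 and 583 in si-AC010789.1, and TNRC6A-201 held 606, 810 and 440 and then 653, 512 and 381. Neither of these TNRC6A transcripts passed the test. The log2 fold change was -0.03 for TNRC6A-203 (SE 0.11, edgeR adjusted p = 0.996) and -0.21 for TNRC6A-201 (SE 0.33, edgeR adjusted p = 0.994). For TNRC6A-201 the mean CPM was 50.5 with the control siRNA and 43.7 with si-AC010789.1, and for TNRC6A-203 it was 50.1 and 49.0. The groups overlapped for each transcript. Which transcripts the lower sum of TNRC6A came from was not tested. TARBP2 had no leading transcript: TARBP2-215 and TARBP2-211 together held 18.0% to 29.5% of its counts, at 13 to 40 counts each per library, with log2 fold changes of 0.27 (SE 0.45) and 0.01 (SE 0.45).

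The wider pathway was read from a list of 97 partner genes in 7 groups, of which 83 were in the table and 80 of those passed the filter. The 14 genes without a row in the table were not analysed here. By edgeR, 1 rose and 1 fell (2.5%, against 0.982% of all genes tested). The log2 fold change was positive for 39 and negative for 41, with a median of -0.0023, and 22 of the 80 had groups that did not overlap (27.5%, against 25.1%). FXR2, an RNA-binding relative of the fragile X protein FMR1, rose from 86.7, 87.0 and 84.3 CPM in siRNA-NC to 111, 106 and 112 CPM in si-AC010789.1 (log2 fold change 0.35, SE 0.05, edgeR adjusted p = 0.042). KHSRP, which binds the terminal loop of some microRNA precursors, fell from 322, 344 and 347 CPM to 271, 274 and 275 CPM (log2 fold change -0.30, SE 0.04, edgeR adjusted p = 0.042). Neither call held when any 1 of the 6 libraries was left out (edgeR adjusted p = 0.097 to 0.143 for FXR2 and 0.073 to 0.150 for KHSRP), and neither held with protein-coding transcripts only (0.069 and 0.106).

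Among the partner genes whose groups did not overlap, the largest positive differences were those of WTIP, PIWIL2 and DCP2. WTIP, a LIM-domain protein of the Ajuba family, was at 1.95, 1.58 and 3.30 CPM in siRNA-NC and at 5.15, 5.75 and 4.45 CPM in si-AC010789.1 (log2 fold change 1.16, SE 0.29, edgeR adjusted p = 0.130). PIWIL2, a PIWI-clade Argonaute known from the germ line, was at 3.81, 2.87 and 1.20 CPM and at 5.07, 4.63 and 4.45 CPM (log2 fold change 0.85, SE 0.38, edgeR adjusted p = 0.318). DCP2, the decapping enzyme, was at 45.2, 45.7 and 43.5 CPM and at 59.0, 63.0 and 56.8 CPM (log2 fold change 0.41, SE 0.07, edgeR adjusted p = 0.057). None of the 3 passed the edgeR test, and DESeq2 called DCP2 (adjusted p = 0.0012) and gave the other 2 no adjusted p.

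The largest negative differences without overlap were those of DCP1B, PABPC1 and TSNAX. DCP1B, a cofactor of decapping, was at 10.8, 8.22 and 8.85 CPM in siRNA-NC and at 7.08, 6.63 and 4.13 CPM in si-AC010789.1 (log2 fold change -0.64, SE 0.23, edgeR adjusted p = 0.235). PABPC1, the main cytoplasmic poly(A)-binding protein, was at 1014, 1018 and 848 CPM and at 709.9, 731 and 756 CPM (log2 fold change -0.39, SE 0.08, edgeR adjusted p = 0.085). TSNAX, the partner of translin, was at 82.0, 70.9 and 79.2 CPM and at 55.2, 69.6 and 56.3 CPM (log2 fold change -0.36, SE 0.11, edgeR adjusted p = 0.185). These 3 did not pass the edgeR test, and PABPC1 was called by DESeq2 (adjusted p = 0.0024) and by edgeR without siRNA-NC replicate 3 (adjusted p = 0.047). With other single libraries left out, the edgeR adjusted p of PABPC1 went up to 0.233. With protein-coding transcripts only, its log2 fold change was -0.19 (edgeR adjusted p = 0.235).

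DESeq2 called 6 of the 76 partner genes to which it gave an adjusted p (7.89%, against 5.16%). Besides FXR2, DCP2, KHSRP and PABPC1 these were HSP90AA1, a chaperone of Argonaute loading, and TRIM25, an RNA-binding ubiquitin ligase, which are named because of this call. HSP90AA1 was higher (log2 fold change 0.25, SE 0.06, edgeR adjusted p = 0.120, DESeq2 adjusted p = 0.026), and with protein-coding transcripts only its log2 fold change was -0.00033. TRIM25 was lower (log2 fold change -0.29, SE 0.06, edgeR adjusted p = 0.089, DESeq2 adjusted p = 0.012).

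By group, the Microprocessor partners split into 5 positive and 7 negative of 12 tested, the genes of export, dicing and editing into 2 and 8 of 10, those of Argonaute loading into 9 and 4 of 13, and the silencing effectors into 20 and 15 of 35. All 7 genes of small RNA and Argonaute turnover had a negative log2 fold change (median -0.10), but PNPT1 was at 0.18 with protein-coding transcripts only, and with 1 library left out ERI1 ranged from -0.45 to 0.24 and SND1 from -0.065 to 0.023. None of the 7 passed the edgeR test. Of the microRNA host genes, 1 of 13 could be tested, MCM7, with a log2 fold change of 0.10. The PIWI genes that were measured, PIWIL2 and PIWIL4, summed to 1.50 to 4.34 CPM in siRNA-NC, against 5.43 to 5.76 CPM in si-AC010789.1. This sum is mostly PIWIL2, already named above for its lack of overlap, and is no separate result. PIWIL4 held only 4 to 12 counts per library. Its groups overlapped, at 0.53, 0.90 and 0.30 CPM in siRNA-NC and 0.70, 0.88 and 0.97 CPM in si-AC010789.1 (edgeR adjusted p = 0.594).

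**Figure D5:**
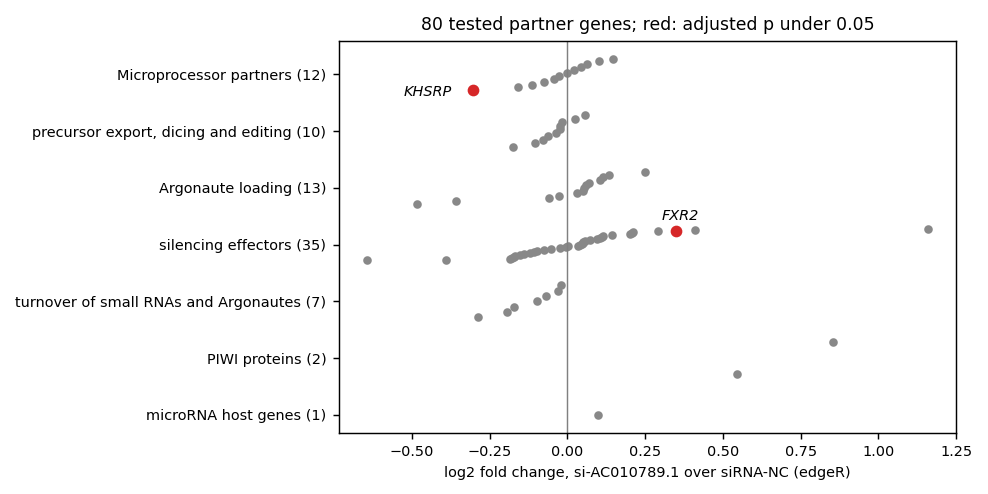
Log2 fold change of si-AC010789.1 over siRNA-NC from edgeR (x axis) of the 80 tested partner genes, by group (y axis, number tested in brackets); each point is a gene, and red marks an adjusted p under 0.05. Only FXR2 (0.35) and KHSRP (-0.30) are red, and the 7 turnover genes lie left of 0 in this fit, though PNPT1 lies right of it with protein-coding transcripts only and ERI1 and SND1 with some single libraries left out.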

How the data were processed

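The authors extracted total RNA, made paired-end libraries and deposited whole-number counts per Ensembl transcript for 6 libraries; their processing notes list CASAVA 1.8, TopHat2 2.0.6 and the builds GRCh38 and mm10, with no role. The counting program, its annotation, its use of strand and how reads shared by transcripts were divided are not given in the sources used here. The study's discussion mentions different generations of cells for its biological repeats; the labels do not, and p-values measure the spread between these libraries.

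Transcripts were matched to GENCODE v29 (98782 of 98886; GRCh38 coordinates) and summed per gene. Genes and transcripts were tested with edgeR 4.0.16 (R 4.3.3), using TMM, filterByExpr (minimum count 10, total 15), the quasi-likelihood F test and Benjamini-Hochberg adjustment, with no block. CPM used TMM-scaled library sizes, set separately for genes and transcripts. DESeq2 1.42.0 and the other settings were alternatives. The fits were checked on simulated data. Shares and ratios were tested by exact two-sided permutation over libraries. Depth was 11277222 to 13443866 counts, and 3 counts (0.223 to 0.266 CPM) served as a floor, for counting error only.

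Named were all 10 genes, the 2 leading transcripts of each and any past an unadjusted p of 0.05, a log2 fold change of 1 and without overlap, partner genes that passed the test, and the 3 largest rises and falls without overlap. The genes and lists were chosen with earlier results of these data known. Levels between genes were compared in TPM, from each transcript's own length.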

Additional observations from a re-analysis of the deposited data

How the results depend on the processing

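Under the alternatives, the 10 genes stayed without an edgeR call, and 1 of them, AGO2, was called by DESeq2; with any 1 library left out the number was 0. The number of genes called among all tested was 135 by the fit reported, 554 by DESeq2, 69 without a filter on low counts, 56 with protein-coding transcripts only, 0 with the replicate number as a block and 12 to 37 with 1 library left out. Of the partner genes, 2 were called by the fit reported, 6 by DESeq2, 0 without a filter, 0 with protein-coding transcripts only, 0 with the block (edgeR adjusted p = 0.174 for FXR2 and 0.171 for KHSRP) and 0 to 1 with 1 library left out. Of all transcripts, 6 were called by the fit reported, 616 by DESeq2, 0 without a filter, 0 with the block and 0 to 6 with 1 library left out; none of the 54 of the 10 genes was called under any of these. The cause of these differences was not tested, beyond the fewer libraries or transcripts that some settings use.

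Directions turned where the difference was small against its error. With protein-coding transcripts only, the log2 fold change was -0.12 for AGO3 and 0.096 for DGCR8. With 1 library left out, it ranged from -0.0097 to 0.10 for AGO1, from -0.16 to 0.13 for AGO3, from -0.041 to 0.019 for DROSHA and from -0.046 to 0.011 for XPO5. Among the named transcripts it ranged from -0.027 to 0.095 for AGO1-201, from -0.65 to 0.88 for DICER1-202, from -0.13 to 0.98 for DICER1-201, from -0.071 to 0.11 for DROSHA-212, from -0.021 to 0.51 for TARBP2-215, from -0.27 to 0.43 for TARBP2-211, from -0.12 to 0.016 for XPO5-201 and from -0.22 to 0.047 for XPO5-207. By DESeq2 it was -0.011 for TARBP2-211. AGO2, AGO4, DICER1, TARBP2 and TNRC6A kept their sign in all settings run. With RLE size factors or a mean of at least 1 CPM, the counts of calls stayed within 1.5 times of those reported.

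The labels number the libraries of both groups 1 to 3 without saying that a number was shared. Deviations from the group mean of same-numbered libraries correlated at 0.0896, 0.0028 and 0.00033. siRNA-NC 1 correlated best with its own number. siRNA-NC 2 correlated best with si-AC010789.1 3 (0.0789), and siRNA-NC 3 with si-AC010789.1 2 (0.0189). Correlations this small do not settle whether the libraries were paired, and the numbers were not taken to pair them. With the replicate block, DICER1-202 had a log2 fold change of -0.24. The differences in shares of Argonaute TPM and of protein-coding counts moved by no more than the larger of the SDs of both groups, but some moved by more than the siRNA-NC SD and most turned sign. With the longest transcript as gene length, the difference in share of Argonaute TPM (si-AC010789.1 minus siRNA-NC) was -2.24 percentage points for AGO1, 2.77 for AGO2, -0.60 for AGO3 and 0.063 for AGO4. With 1 library left out, all 4 turned sign for at least 1 choice of library, as did the difference in protein-coding share of all but AGO1, AGO3 and DROSHA (from -5.75 to 9.73 points for DGCR8 and from -2.90 to 9.82 for TARBP2). With the longest transcript as gene length, XPO5 (62.1 TPM) ranked above TNRC6A (43.2 TPM), and the other ranks were as reported. The levels themselves moved by more than the SDs given for most genes. In siRNA-NC, DROSHA went from 141 to 104 TPM, AGO2 from 52.0 to 40.2 TPM and AGO3 from 6.42 to 2.88 TPM. AGO1 was the only gene that went up, from 10.3 to 12.3 TPM. Depth limits AGO3, AGO4 and TARBP2 most, at 191 to 348 counts per library.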
